A study of Mus musculus with 6 samples.

Results

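The aldehyde dehydrogenases (Aldh), alcohol dehydrogenases (Adh), aldo-keto reductases (Akr1 and Akr7) and flavin-containing monooxygenases (Fmo) were examined in livers of chromogranin A knockout mice. Members were the genes with a probe set of their own whose symbol starts with Aldh, with Adh or Fmo and a digit, or with Akr1 or Akr7, each read by its brightest probe set. They came to 39 of 12393 genes on the array: 17 Aldh, 4 Adh, 14 Akr and 4 Fmo genes. The groups were chromogranin A knockout mice (Chga KO, 3 arrays) and wild-type mice (WT, 3 arrays), all of them males of 12 weeks, with liver total RNA of each mouse on 1 Affymetrix array. The labels name an earlier publication for both lines, and give neither their genetic background nor whether controls were littermates. In whole liver, fewer cells of a type and less RNA per cell cannot be told apart.

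These families handle reactive carbonyls, alcohols and soft nucleophiles. Alcohol dehydrogenases oxidise alcohols such as ethanol and retinol to aldehydes with NAD+, aldehyde dehydrogenases oxidise aldehydes on to acids, and aldo-keto reductases run the opposite way, reducing aldehydes and ketones, steroids among them, with NADPH. Flavin-containing monooxygenases sit in the endoplasmic reticulum and use NADPH and oxygen to oxidise nitrogen and sulfur atoms of drugs and dietary amines. Hepatocytes express many of these genes strongly.

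Each probe set has 1 linear intensity per array, in arbitrary units. A gene counted as measured when its brightest probe set lay in the upper 60% by mean, and changes are Chga KO minus WT on log2(intensity + 16), with the standard error (SE) of the limma fit and p-values adjusted over all 13576 kept probe sets by Benjamini-Hochberg at a threshold of 0.05. Signals of different probe sets are not comparable as levels, so where a ratio of 2 genes is given only its difference between groups is read. Chga itself was dim, with 61.5, 44.5 and 231 in the Chga KO arrays and 167, 185 and 42.5 in the WT arrays; at this signal its probe set does not check the labels. Between 64.4% and 74.7% of probe sets in the Chga KO arrays and between 69.2% and 76.9% in the WT arrays were above the background reference, the 95th percentile of 27 Bacillus subtilis control probe sets on the same array. Of the hepatocyte markers 10 of 10 measured lay higher in Chga KO liver, none past the threshold, and their summed intensity ran from 1213646 to 1392309 in Chga KO arrays and from 1152175 to 1272395 in WT arrays. Their median change was 0.098. Alb, Apoa1, Apob, Ttr, Serpina1b, Cps1 and Hpx were among the 141 genes with a mean log2 value of 16 or more, of which 87.2% were higher, with a median of 0.13. Kupffer cell and macrophage markers (11 measured, 1 higher) summed to between 20630 and 32659 in Chga KO arrays and between 25935 and 34298 in WT arrays, and stellate cell and matrix markers (8 measured, 0 higher) to between 21426 and 26946 in Chga KO arrays and between 25225 and 33803 in WT arrays. Their median changes were -0.25 and -0.35. By limma, 3 stellate cell and matrix markers (Col3a1, Lum and Reln) were lower at an unadjusted p under 0.05, and 0 Kupffer cell and macrophage markers. Over all measured genes 5.69% were lower at this p, and 47.3% lay above 0. Pericentral hepatocyte markers (9 measured, 8 higher) summed to between 451504 and 507369 in Chga KO arrays and between 437603 and 444945 in WT arrays, and periportal ones (5 measured, 2 higher) to between 318447 and 334241 in Chga KO arrays and between 299334 and 310453 in WT arrays. Such sums follow their brightest genes. The periportal sum was carried by Cyp2f2 and Arg1, the 2 that were higher, while the median change of that list was -0.11. Aldh1b1, also a periportal marker, was counted with the members only. Of the 5 adipocyte markers Car3 alone was measured, a gene that liver also expresses, with a change of 0.22 ± 0.08 (limma adjusted p = 0.418), and of the 5 pancreas markers Cela1 alone, with -0.58 ± 0.17 (0.245); in neither did the groups overlap. No measured marker was at 0, but Cd68 read 49.3 in Chga KO replicate 2, under that array's background reference of 322. No cholangiocyte or lymphocyte marker was measured, and the part of cell makeup in the results below was not tested.

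Of the 39 genes 32 were measured, and 31 of these exceeded the background reference on all 6 arrays. By limma with Benjamini-Hochberg adjustment 0 of the 32 passed the threshold, where 0.423% of all 8047 measured genes did (34 genes, by brightest probe set; over probe sets it was 51, or 0.376%). At an unadjusted p under 0.05, 4 members were higher in Chga KO liver and 0 lower, or 12.5% of members against 4.57% of all genes in the upward direction (5.69% of all genes were lower, and 10.3% passed in either direction). The 4 were Aldh3a2 and Aldh1a1, which make fatty acids and retinoic acid from their aldehydes, and the monooxygenases Fmo5 and Fmo1, each between 1.32-fold and 1.47-fold higher. The groups did not overlap for 5 members, these 4 and Adh7, all with the Chga KO arrays higher (7.77% of all genes were separated in that direction, 7.84% in the other and 15.6% in either). The median log2 change was 0.059 over the 32 members and -0.015 over all measured genes, and 22 of the 32 lay above 0, as did 47.3% of all measured genes. After quantile normalization the members' median was 0.020, with 19 of 32 above 0. Bright genes lay above 0 more often than others. Of the 591 genes with a mean log2 value from 14 to 16, 62.4% were higher, as were 9 of the 14 members among them, Fmo1 and Fmo5 included. Of the 141 brighter still 87.2% were higher, as were 4 of the 5 members, Aldh1a1 included. The median SE was 0.109 over the members and 0.182 over all measured genes, so the shares at an unadjusted p under 0.05 compare genes of unlike precision. No test was made of the families as sets.

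**Figure D1:**
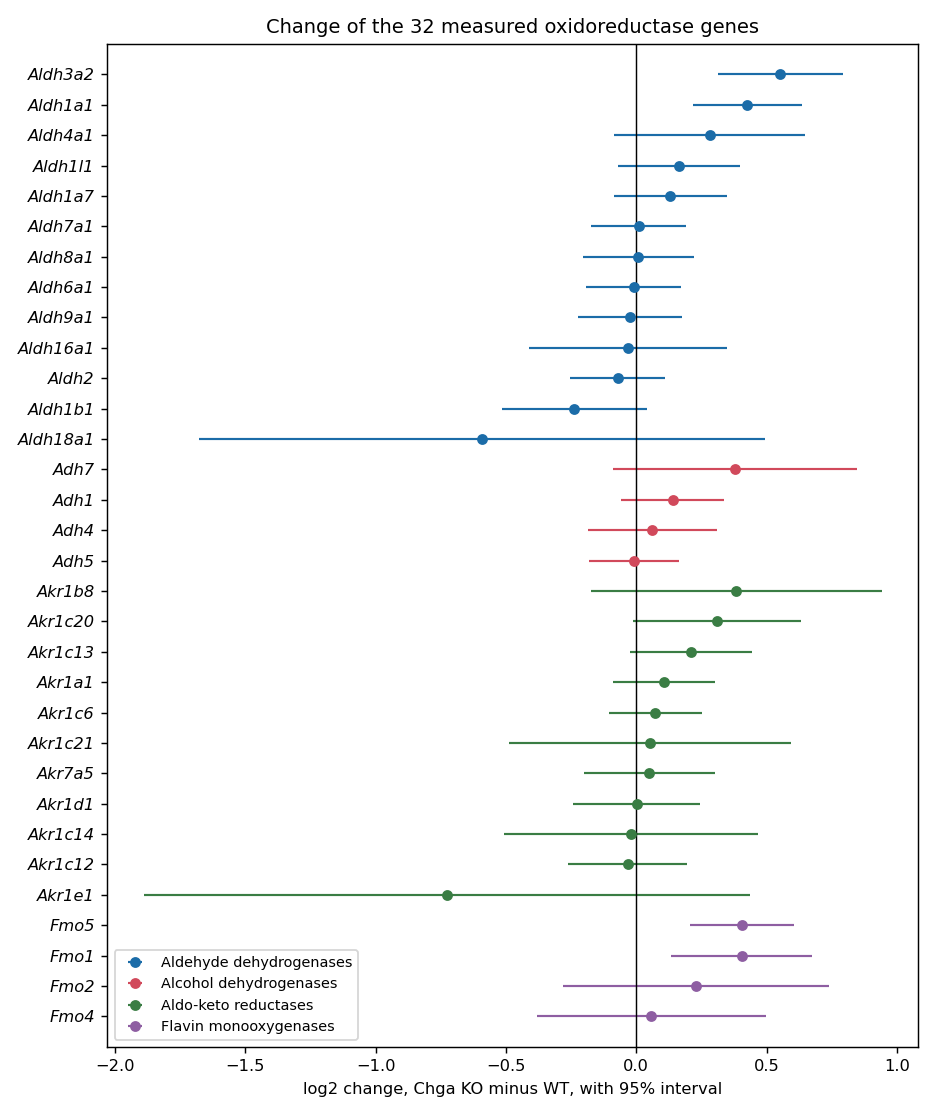
log2 change (Chga KO minus WT, x axis) of the 32 measured genes, grouped by family down the page and coloured by family; points are fitted changes and bars their 95% intervals (n = 3 arrays per group). The intervals of Aldh3a2, Aldh1a1, Fmo5 and Fmo1 lie above 0, while those of Akr1e1 and Aldh18a1 are the widest and cross 0.

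For Aldh1a1, Aldh1a7, Aldh3a2 and Fmo5, the RefSeq promoter windows of assembly GRCm38.p6 are given, 250 bases before to 50 after the start, 5′ to 3′ on the gene's strand. Aldh1a1 and its sister gene Aldh1a7 lie on chromosome 19 and are shown because their changes are compared with each other further on; of the 2 windows of Aldh1a1 the one more like that of Aldh1a7 is given. Capitals mark stretches of at least 20 bases that the windows of both genes share, 95 bases in 2 runs, the longer of 65 bases.
Aldh1a1 (chr19:20601718-20602017, plus strand): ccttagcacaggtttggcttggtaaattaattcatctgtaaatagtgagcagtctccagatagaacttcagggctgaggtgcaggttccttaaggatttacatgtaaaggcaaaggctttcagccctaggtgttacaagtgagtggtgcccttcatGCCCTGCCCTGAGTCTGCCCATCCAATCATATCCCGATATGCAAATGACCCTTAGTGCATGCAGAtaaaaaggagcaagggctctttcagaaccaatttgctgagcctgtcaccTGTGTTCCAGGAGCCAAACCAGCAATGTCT
Aldh1a7 (chr19:20727507-20727806, minus strand): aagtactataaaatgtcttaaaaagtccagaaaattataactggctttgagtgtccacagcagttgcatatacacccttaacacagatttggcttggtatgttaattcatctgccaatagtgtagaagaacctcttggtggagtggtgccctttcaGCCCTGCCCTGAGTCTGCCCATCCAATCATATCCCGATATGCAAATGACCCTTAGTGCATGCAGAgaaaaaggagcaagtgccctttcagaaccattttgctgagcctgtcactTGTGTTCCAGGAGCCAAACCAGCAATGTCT

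The windows of Aldh3a2 (chromosome 11) and Fmo5 (chromosome 3) are shown as those of the member with the smallest p and of a member with an unadjusted p under 0.05 by both of its probe sets. Here capitals mark matches, on either strand, to 5 motifs: the box CCAAT, the E-box letters CACGTG, the TATA box letters TATAAA, the antioxidant response pattern TGACNNNGC (N is any base) and the nuclear receptor half-site AGGTCA. A match is a description of the letters only.
Aldh3a2 (chr11:61267137-61267436, minus strand): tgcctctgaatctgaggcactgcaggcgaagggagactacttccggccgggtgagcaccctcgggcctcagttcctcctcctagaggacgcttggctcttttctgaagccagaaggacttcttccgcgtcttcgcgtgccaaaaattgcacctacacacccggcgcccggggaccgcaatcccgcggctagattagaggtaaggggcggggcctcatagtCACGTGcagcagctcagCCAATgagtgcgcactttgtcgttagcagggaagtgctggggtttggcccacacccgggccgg
Fmo5 (chr3:97628769-97629068, plus strand): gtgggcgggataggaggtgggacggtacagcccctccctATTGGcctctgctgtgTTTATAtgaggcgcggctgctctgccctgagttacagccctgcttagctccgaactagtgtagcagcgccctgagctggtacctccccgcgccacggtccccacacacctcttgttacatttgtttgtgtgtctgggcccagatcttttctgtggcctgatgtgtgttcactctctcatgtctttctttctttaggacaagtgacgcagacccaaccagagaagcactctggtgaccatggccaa

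CCAAT was present in all 4 windows, with 2 matches each in Aldh1a1 and Aldh1a7, and in 37.4% of all 32851 windows in the table. Of the 37 windows of 33 member genes, 51.4% held it. CACGTG was present in Aldh3a2 alone of the 4 and in 7.15% of all windows, and TATAAA in Aldh1a7 and Fmo5 and in 13.6% of all windows. Of the member windows 10.8% held CACGTG and 16.2% TATAAA. TGACNNNGC had 0 matches in the 4 windows and was present in 8.11% of member windows and 12.4% of all windows. AGGTCA also had 0 matches in the 4, and was present in 27.0% of member windows and 16.3% of all windows. Fmo1 had no entry in the table.

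Among the aldehyde dehydrogenases, 13 of 17 genes were measured, with a median change of 0.0078 and 7 above 0; after quantile normalization the median turned to -0.024, with 6 above 0. Aldh3a2 encodes the fatty aldehyde dehydrogenase of the endoplasmic reticulum and peroxisomes, which turns long-chain aldehydes from ether lipid, sphingolipid and phytol breakdown into fatty acids. It read 12688, 12468 and 15268 in Chga KO arrays and 9471, 8947 and 9005 in WT arrays. The lowest Chga KO array stood well above the highest WT array, and Chga KO replicate 3 was the highest of all. The means were 13475 ± 1557 and 9141 ± 287 (SD, n = 3 each), a log2 change of 0.55 ± 0.11 (SE, 1.47-fold, limma adjusted p = 0.0635).

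Aldh1a1 encodes the cytosolic retinaldehyde dehydrogenase of liver. Its probe set read 103187, 110193 and 110094 in Chga KO arrays and 89994, 71201 and 80598 in WT arrays. All Chga KO arrays were higher, and the WT arrays varied more among themselves. The log2 change was 0.43 ± 0.09 (1.34-fold, 95% interval 1.16 to 1.55, limma adjusted p = 0.100). It was 0.31 after quantile normalization. Genes this bright lay mostly above 0 in Chga KO liver: the 141 genes with a mean log2 value of 16 or more had a median change of 0.13, and of the 5 members among them Adh1, Akr1a1, Akr1c6 and Aldh1a1 came closer to 0 after quantile normalization, while Aldh2 went to -0.14.

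Aldh1a7, the sister gene, read 57446, 49954 and 63382 in Chga KO arrays and 49767, 52847 and 52678 in WT arrays. The groups overlapped and the change was 0.13 ± 0.10. The ratio of the Aldh1a1 to the Aldh1a7 signal within an array, as log2, was 0.84, 1.14 and 0.80 in Chga KO arrays and 0.85, 0.43 and 0.61 in WT arrays. These overlapped, with a difference of 0.29 between the 2 changes; the pair was chosen after its values were seen, so no test is given. The other retinaldehyde dehydrogenases, Aldh1a2 and Aldh1a3, were dim, above the background reference on 1 and 0 of 6 arrays.

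Both mitochondrial enzymes that oxidise acetaldehyde had values below 0 by their brightest probe sets, and neither passed the test. Aldh2 read 65217, 74718 and 69800 in Chga KO arrays and 75399, 73616 and 71153 in WT arrays, overlapping groups with a change of -0.07 ± 0.08. Its interval allowed from 0.839-fold to 1.08-fold. Its 2 dimmer probe sets lay above 0, at 0.10 ± 0.13 and 0.39 ± 0.29. The first of them read 2682, 2793 and 2723 in Chga KO arrays and 2557, 2475 and 2604 in WT arrays, groups that did not overlap. Aldh1b1 read 5887, 6795 and 6818 in Chga KO arrays and 7776, 8612 and 6684 in WT arrays, a change of -0.24 ± 0.13 (limma adjusted p = 0.581), and WT replicate 3 lay within the Chga KO range.

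Enzymes of amino acid and one-carbon catabolism and of carnitine synthesis were mostly close to 0. Aldh6a1 (valine breakdown, -0.01 ± 0.08), Aldh7a1 (lysine breakdown, 0.01 ± 0.08), Aldh8a1 (tryptophan breakdown, 0.01 ± 0.10) and Aldh9a1 (carnitine synthesis, -0.02 ± 0.09) had intervals within 1.5-fold of no change in either direction. Aldh1l1, the 10-formyltetrahydrofolate dehydrogenase, stood at 0.16 ± 0.11. Aldh4a1, the last step of proline breakdown, read 5746, 8750 and 9127 in Chga KO arrays and 6336, 6617 and 6092 in WT arrays. Chga KO replicates 2 and 3 were above and replicate 1 below every WT array, and the change was 0.28 ± 0.17 (limma adjusted p = 0.615). Among the remaining genes of the family, Aldh16a1 was at -0.03 ± 0.17.

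Aldh18a1, which starts proline synthesis, had the largest absolute change of the 13 measured genes of its family, with a wide error. It read 141, 494 and 545 in Chga KO arrays and 389, 605 and 593 in WT arrays, a change of -0.59 ± 0.49 (limma adjusted p = 0.734). Chga KO replicate 1 was under the background reference, and without it the groups differed by -0.00022 on the log2 scale. Aldh3a1 and Aldh3b1, which also act on lipid-derived aldehydes, were not measured, with intensities between 26.9 and 209.7 and between 201 and 558. Aldh3a1 exceeded the background reference on 1 of 6 arrays and Aldh3b1 on 5 of 6.

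**Figure D2:**
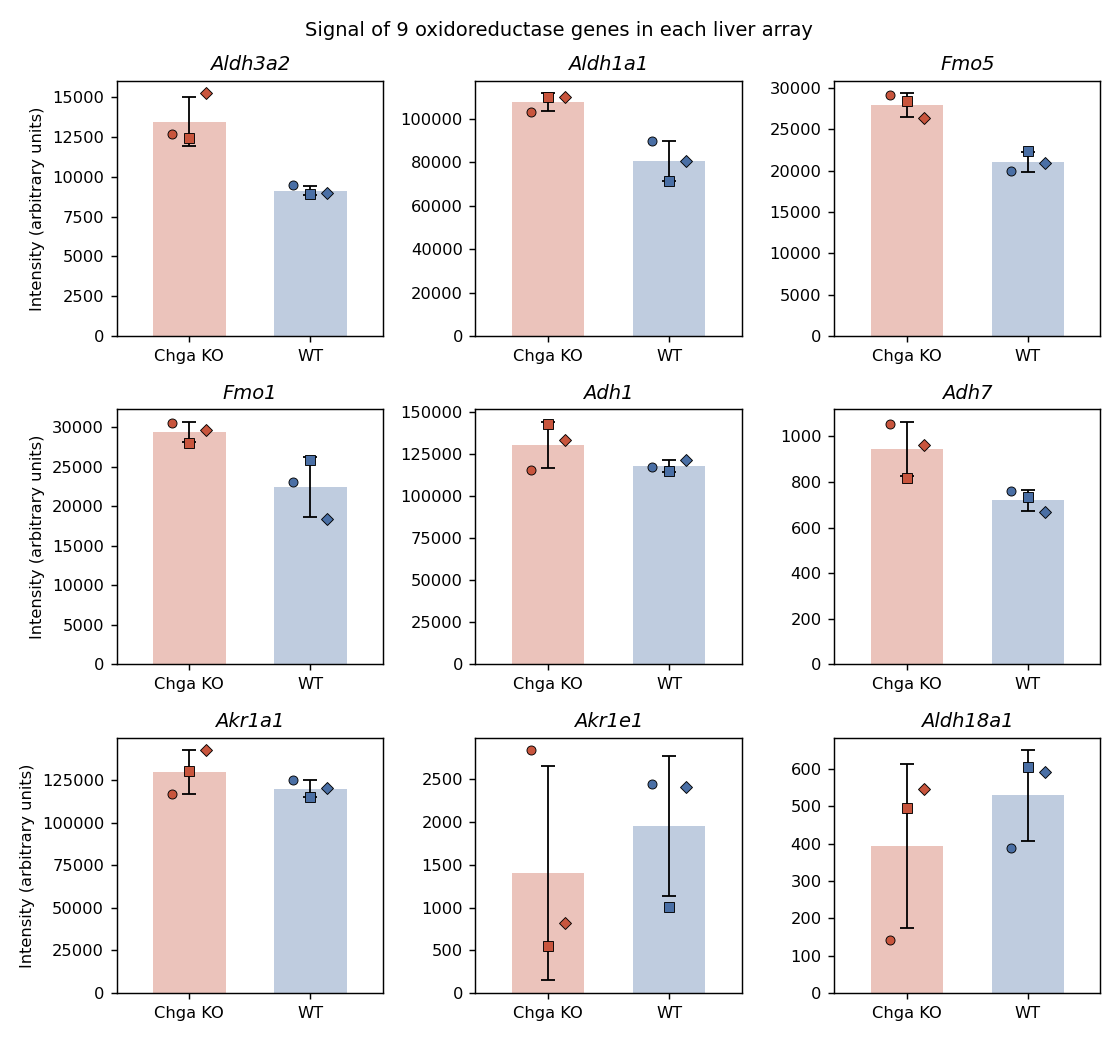
Intensity (arbitrary units, linear axis from 0) of 9 genes in the Chga KO (left) and WT (right) arrays. Bars are means, error bars SD (n = 3), and circle, square and diamond are replicates 1, 2 and 3. In the panels of Aldh3a2, Aldh1a1, Fmo5, Fmo1 and Adh7 the points of the 2 groups do not overlap; in those of Akr1e1 and Aldh18a1 the points of 1 group spread over most of the axis.

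All 4 flavin-containing monooxygenases were measured; 0 passed the adjusted threshold (limma), and 2 (Fmo5 and Fmo1) had an unadjusted p under 0.05. The median change was 0.32, and 0.33 after quantile normalization, with 4 of 4 values above 0 in both. The single genes moved both ways under that normalization. Fmo5 and Fmo1 went from 0.41 and 0.41 to 0.38 and 0.37, and Fmo2 and Fmo4 from 0.23 and 0.06 to 0.28 and 0.09. Fmo5, known for inserting oxygen beside ketone groups, read 29117, 28408 and 26392 in Chga KO arrays and 19943, 22385 and 20951 in WT arrays. The groups were well apart, at 27972 ± 1414 and 21093 ± 1227 (SD, n = 3 each). The change was 0.41 ± 0.09 (1.33-fold, limma adjusted p = 0.0999).

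The other Fmo5 probe set read 8786, 8915 and 9179 in Chga KO arrays and 6329, 6582 and 6443 in WT arrays. Both groups were tight, and its change was 0.47 ± 0.10 (1.39-fold, limma adjusted p = 0.0767). The 2 probe sets thus gave changes that differ by less than either error. They measure the same RNA samples and are not replicates.

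Fmo1, a main hepatic form that oxygenates amines and sulfides, read 30564, 28034 and 29622 in Chga KO arrays and 22998, 25892 and 18339 in WT arrays. Its WT arrays were spread more widely than its Chga KO arrays, and WT replicate 2 came nearest to them. The change was 0.41 ± 0.12 (1.32-fold, limma adjusted p = 0.256). Fmo1 and Fmo5 lie on chromosomes 1 and 3.

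Fmo2, the form known from lung, read 1422, 2559 and 1410 in Chga KO arrays and 1395, 1623 and 1404 in WT arrays. Chga KO replicate 2 alone was high and the other 5 arrays lay close together, for a change of 0.23 ± 0.23. Fmo4 was at 0.06 ± 0.20. For these 2 dimmer genes a change of the size of Fmo5 lies inside the 95% interval (-0.28 to 0.74 for Fmo2 and -0.38 to 0.50 for Fmo4).

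The 4 alcohol dehydrogenases, all on chromosome 3, were measured, with a median change of 0.10, and 0.019 after quantile normalization. Adh1, the class I enzyme that oxidises ethanol and retinol, read 115490, 142787 and 133114 in Chga KO arrays and 117582, 114794 and 121610 in WT arrays. Chga KO replicates 2 and 3 were above every WT array and replicate 1 was among them. The change was 0.14 ± 0.09 (1.10-fold, limma adjusted p = 0.650), close to the median of 0.13 for genes of its brightness, and 0.016 after quantile normalization. It was 0.22 without Chga KO replicate 1 and 0.072 without Chga KO replicate 2.

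Adh5, which clears formaldehyde bound to glutathione and also reduces S-nitrosoglutathione, read 52860, 56686 and 54153 in Chga KO arrays and 53170, 56142 and 55348 in WT arrays. The groups covered the same range. Its change of -0.0087 ± 0.078 had the smallest error of the 32 members and an interval from 0.882-fold to 1.12-fold; the sign turned to 0.0058 after median centring.

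Adh4, the class II enzyme, was at 0.06 ± 0.11. Adh7, the class IV retinol dehydrogenase known from stomach, was dimmer, at 1055, 819 and 961 in Chga KO arrays and 758, 732 and 669 in WT arrays. Its groups did not overlap, and the change was 0.38 ± 0.21 (limma adjusted p = 0.596). Its other probe set was at -0.28 ± 0.51, where Chga KO replicate 3 read 138 and the remaining arrays between 420 and 637. With the mean of both probe sets the change was 0.048.

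Of the 14 aldo-keto reductases 11 were measured, with a median of 0.052 and 8 above 0, and in none did the groups separate. After quantile normalization the median was 0.0048, with 6 of 11 above 0. Akr1a1, the aldehyde reductase that also makes gulonate for ascorbate synthesis in mice, read 116813, 130382 and 142629 in Chga KO arrays and 125069, 115184 and 120434 in WT arrays. The change was 0.11 ± 0.09 (limma adjusted p = 0.730), and its 4 kept probe sets ran from 0.034 to 0.11. After quantile normalization the brightest was at 0.0048, and it was at 0.18 without Chga KO replicate 1 and 0.038 without Chga KO replicate 3. Akr1c6, a 17β-hydroxysteroid dehydrogenase, stood at 0.07 ± 0.08, with the sign turned to -0.02 after quantile normalization.

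The Akr1c genes on chromosome 13 are close relatives whose probe sets may read one another. Akr1c13 read 17544, 17505 and 15726 in Chga KO arrays and 13184, 14644 and 16181 in WT arrays (0.21 ± 0.11, limma adjusted p = 0.559), and Akr1c12 was at -0.03 ± 0.10. A probe set annotated to both, which is not a member, was at 0.035 ± 0.095. The log2 ratio of Akr1c13 to Akr1c12 was -0.063, -0.020 and 0.0053 in Chga KO arrays and -0.28, -0.32 and -0.20 in WT arrays. Those groups did not overlap, with a difference of 0.24. This pair too was chosen after its values were seen, and no test is given.

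Akr1c20 read 19908, 22048 and 18126 in Chga KO arrays and 13904, 20532 and 14672 in WT arrays. WT replicate 2 overlapped the Chga KO arrays, and the change was 0.31 ± 0.15 (limma adjusted p = 0.525). Akr1c14, a 3α-hydroxysteroid dehydrogenase, varied within both groups, from 18837 to 35883 in Chga KO arrays and from 22364 to 35264 in WT arrays, with a change of -0.02 ± 0.22. Akr1d1, the 5β-reductase of bile acid synthesis, was at 0.00098 ± 0.11, and Akr7a5, an aldehyde reductase, at 0.05 ± 0.11. Akr1c21 was at 0.05 ± 0.24.

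Akr1e1, which reduces 1,5-anhydrofructose, a product of glycogen breakdown, had the largest absolute change of the 32 measured members and the largest error. It read 2843, 551 and 814 in Chga KO arrays and 2446, 1005 and 2407 in WT arrays, a change of -0.73 ± 0.53 (limma adjusted p = 0.691). Chga KO replicate 1 was the highest array and WT replicate 2 the lowest of its group, so the groups overlapped over most of their range. The change was -1.41 without Chga KO replicate 1 and -0.25 without Chga KO replicate 2. Akr1b8, an inducible reductase, read 619, 941 and 1009 in Chga KO arrays and 678, 629 and 610 in WT arrays (0.38 ± 0.25, limma adjusted p = 0.657). The remaining Akr genes, Akr1b10, Akr1c18 and Akr1cl, were not measured. Akr1cl ran from 39.6 to 1379 over the 6 arrays and exceeded the background reference on 4 of them.

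**Figure D3:**
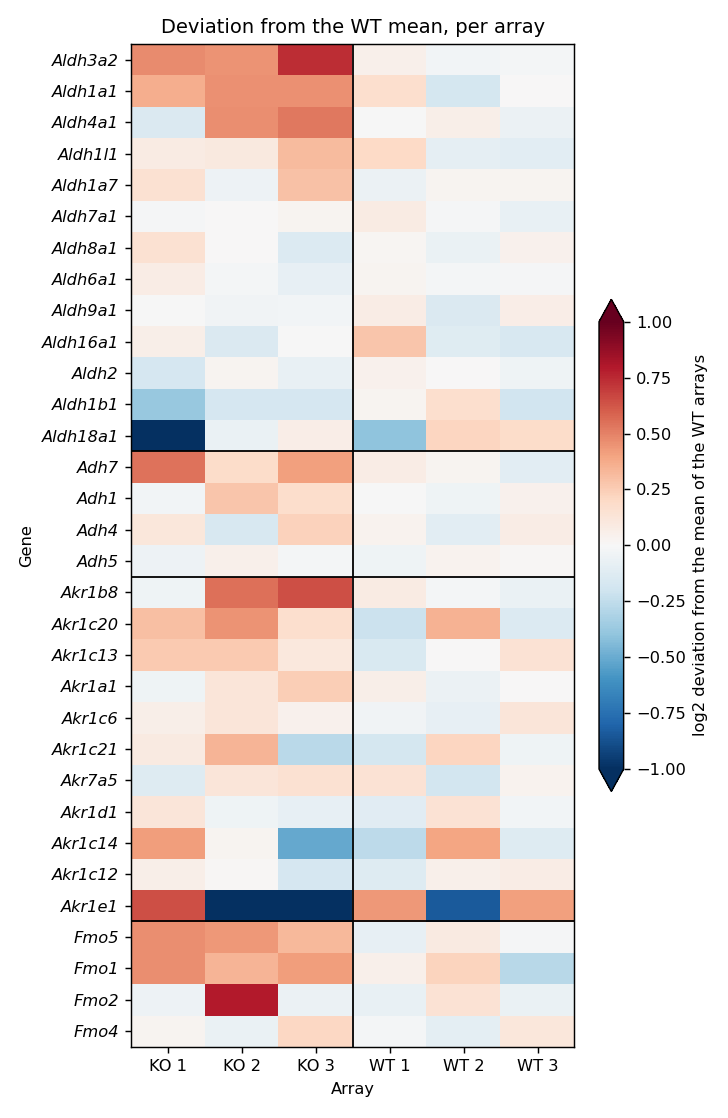
Deviation of each array from the mean of the WT arrays (colour, log2 scale, capped at 1 in both directions) for the 32 measured genes (rows, by family and then by change) in the 3 Chga KO and 3 WT arrays (columns). Aldh3a2, Aldh1a1, Fmo5 and Fmo1 are red in each Chga KO array, while Fmo2 is dark in Chga KO replicate 2 alone and Akr1e1 differs in sign among the Chga KO arrays.

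The median deviation from the WT mean over the 32 members was 0.064, 0.072 and 0.087 in the Chga KO arrays and 0.022, -0.0032 and -0.0086 in the WT arrays. For the Fmo genes it was 0.25, 0.38 and 0.27 in Chga KO arrays and -0.047, 0.11 and -0.037 in WT arrays. Over all measured genes the medians lay between -0.011 and 0.021. Across the 6 arrays the log2 values of Aldh1a1 and Aldh3a2 had a Pearson's r of 0.90 and those of Fmo1 and Fmo5 of 0.82, with the other 4 pairs of these genes between 0.62 and 0.82; the points share the difference between groups by which the genes were picked out, so no test is given.

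**Figure D4:**
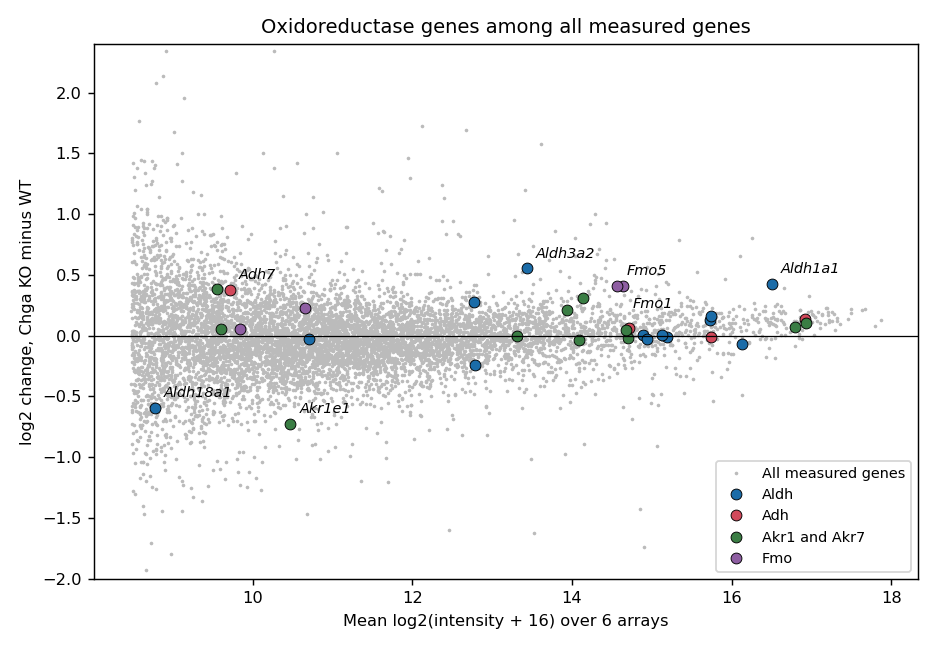
log2 change (Chga KO minus WT, y axis) against the mean log2(intensity + 16) over 6 arrays (x axis) for all 8047 measured genes (grey) and the 32 members (coloured by family); 8 genes outside the drawn range are not shown. Genes with a mean of 16 or more lie mostly above 0, with a median of 0.13, and Aldh1a1 lies at 0.43; Akr1e1 and Aldh18a1 lie among dimmer genes that scatter widely.

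The precision differed among members. For 20 of the 32 the 95% interval stayed within 1.5-fold of no change in both directions, and for 30 within 2-fold; the exceptions were Akr1e1 and Aldh18a1. Over all measured genes 3982 and 6649 of 8047 met these bounds. For 12 members more than 1 probe set was kept, and in 5 of these (Akr1a1, Akr1c20, Aldh7a1, Fmo2 and Fmo5) the probe sets had 1 sign. The dimmer Aldh8a1 probe set read 14899, 14915 and 14851 in Chga KO arrays and 15719, 15871 and 15967 in WT arrays, groups that did not overlap, with a change of -0.09 ± 0.09 against 0.01 for its brightest.

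Genes outside the families were read from 6 lists. For the counts below, the shares over all measured genes at an unadjusted p under 0.05 were 4.57% higher, 5.69% lower and 10.3% in either direction. Of 21 measured other alcohol, aldehyde and ketone enzymes 0 passed the adjusted threshold (limma), 5 were higher and 3 lower at an unadjusted p under 0.05, and the median was -0.031. Khk, the ketohexokinase that starts fructose breakdown, read 24608, 23586 and 23656 in Chga KO arrays and 17986, 17346 and 16060 in WT arrays, groups far apart, with a change of 0.48 ± 0.09 (limma adjusted p = 0.0504). Glo1, which disposes of methylglyoxal, was at -0.54 ± 0.12 (0.111) and Xdh, the xanthine dehydrogenase, at 0.79 ± 0.20 (0.160).

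Of 19 measured retinoid genes, 0 passed, 2 were higher and 0 lower at an unadjusted p under 0.05, and the median was 0.0092. Cyp26a1, which degrades retinoic acid, was at 0.89 ± 0.23 (limma adjusted p = 0.154), Rdh11, a retinal reductase, at 0.84 ± 0.22 (0.169) and Rdh14 at -0.32 ± 0.15 (0.523). Cyp26a1 read 2653, 4012 and 2842 in Chga KO arrays and 1492, 1341 and 2320 in WT arrays, and Rdh11 6873, 5413 and 10458 in Chga KO arrays and 4018, 4905 and 3439 in WT arrays. Neither pair of groups overlapped.

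Of 11 measured genes of electron donors and NADPH supply, the cofactor of reductases and monooxygenases, 0 passed, 4 were higher and 2 lower at an unadjusted p under 0.05, and the median was 0.15. The smallest p-values belonged to Cyb5b, the outer mitochondrial membrane cytochrome b5 (0.55 ± 0.11, limma adjusted p = 0.0635), the malic enzyme Me1 (0.71 ± 0.14, 0.0709) and Pgd of the pentose phosphate pathway (0.59 ± 0.14, 0.122).

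Among genes with known inducers, the list of NRF2 targets outside the families (18 measured, with Nfe2l2, which encodes NRF2, and Keap1 among them) had 0 calls. It had 3 higher and 3 lower at an unadjusted p under 0.05 and a median of 0.093. Ugdh, which makes UDP-glucuronate, was at 0.36 ± 0.10, the thioredoxin reductase Txnrd1 at -0.43 ± 0.15 and the glutathione transferase Gsta2 at 0.32 ± 0.12. The list of CAR, PXR and AhR targets had 11 measured genes, with the genes of these receptors (Nr1i3, Nr1i2 and Ahr) among them. Of the 11, 1 fell, the cytochrome P450 gene Cyp3a13 (-1.62 ± 0.15, limma adjusted p = 0.000746). At an unadjusted p under 0.05, 1 was higher and 2 lower, and the median was 0.10, the value of Nr1i3 itself. The call on Cyp3a13 was lost when limma was run without the intensity trend. Cyp3a13 read 7102, 6810 and 6122 in Chga KO arrays and 17593, 26096 and 18912 in WT arrays. The 8 measured PPARA targets had 0 calls, 1 higher and 3 lower at an unadjusted p under 0.05 and a median of 0.024. They included the receptor Ppara itself at -0.56 ± 0.13, the hydroxylase Cyp4a14 at -1.01 ± 0.24 and Cpt1a, which admits fatty acids to mitochondria, at -0.31 ± 0.10. These lists were not tested as sets.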

How the data were processed

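Liver RNA of 6 mice was measured on Affymetrix arrays. The deposited intensity values are linear; per the submitters' processing notes they were made with GCOS 1.2. Their trimmed means (2% off each end) lay between 2501.32 and 2501.42, so the authors' arrays carried a common scale; how it was set is not given here in any source. Of 22690 probe sets, 64 controls were left out; 20380 had 1 gene in the platform annotation, 691 several and 1555 none. Updating symbols through RefSeq changed 0 member symbols.

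limma 3.58.1 (R 4.3.3; lmFit, eBayes with trend) was run on log2(intensity + 16) over the 13576 probe sets in the upper 60% by mean, without covariates. It was tested on simulated data. Alternatives were 1 smaller and 2 larger pseudocounts, quantile normalization, median centring, other filters, no trend, array weights, a replicate block, probe set means and leaving out each array. Members and lists were chosen with earlier results of these data known; the background reference, brightness classes and sister pairs were chosen after the values were seen. Named singly were members at an unadjusted p under 0.05 and, per family, the brightest and the most changed; of each list, genes past the threshold or otherwise the 3 of smallest p; further members were named after their values were seen. The labels give 3 mice per group, and the number of arrays limits precision.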

Additional observations from a re-analysis of the deposited data

How the results depend on the processing

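In 17 of 17 alternatives 0 members passed the adjusted threshold (limma), and Aldh3a2, Aldh1a1, Fmo5 and Fmo1 stayed higher at an unadjusted p under 0.05, with log2 changes from 0.46 to 0.61, 0.31 to 0.51, 0.37 to 0.45 and 0.27 to 0.52; the lowest adjusted p of these was 0.0509 for Aldh3a2. None of the 9 genes named by rule changed sign in the alternatives that measured them (Adh7 and Aldh18a1 were not measured in the upper 40%), though Adh1, Akr1a1 and Aldh18a1 came to 0.016, 0.0048 and -0.00022. Members higher at an unadjusted p under 0.05 numbered 5 to 8 with 1 array left out, the 8 without Chga KO replicate 1, where Adh1, Akr1a1, Akr1b8 and Aldh4a1 joined. Members lower numbered 0 to 1 over the alternatives. The 1 was Akr1e1 under the replicate block and without Chga KO replicate 1, and Aldh1b1 without WT replicate 3. The shares of all genes at this p were not taken in the alternatives. The median of the members was 0.020 after quantile normalization, 0.074 after median centring, 0.082 with array weights and between 0.038 and 0.088 with 1 array left out. Over all probe sets 85 passed with the largest pseudocount, 7 without the trend, 82 with array weights, 27 with the replicate block, and 21 to 57 with 1 array left out (21 without WT replicate 3, 23 without WT replicate 1), against 51. Same-numbered arrays deviated with correlations of -0.059, -0.060 and -0.065. Arrays of unlike number were not compared in this way, so whether a number marks a shared batch was not tested. Of the other pathway genes 2 passed with either larger pseudocount, after quantile normalization, in the upper 40% and with array weights (Cyp3a13 and Khk), 0 without the trend (Cyp3a13 lost), and 1 to 3 with 1 array left out (3 without WT replicate 2, Cyp3a13, Glo1 and Xdh), against 1; the cause was not tested.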
